A study of Homo sapiens with 14 samples.

Results

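The genes described here are the subunits of the hypoxia-inducible factors (HIF) and the proteins that sense oxygen for them, 9 genes of the 36601 in the single-cell matrices. They were taken by their symbol (HIF1A, EPAS1, HIF3A, ARNT, EGLN1, EGLN2, EGLN3, HIF1AN and VHL), and each of the 9 had a row in the single-cell and in the bulk tables. The cells were human colorectal cancer lines that came from 1 patient, SW480 from the primary tumor and SW620 from a lymph node metastasis, kept in long-term culture (LTC), in which a plate is not passaged for 15 days and the cells grow as colonies. Single-cell RNA-seq was done on days 6, 9, 12 and 15 in SW620 and in SW620-TET2CD, which overexpresses the catalytic domain of the DNA demethylase TET2. The paper gives the control cells of this assay as SW620 with an empty FLAG vector, where the labels have only SW620. Whether the bulk SW620 cells carried that vector, and whether the bulk libraries of days 6 and 15 came from the same culture, is not clear from the labels. Bulk RNA-seq covered SW480 and SW620 on day 6, each as a whole culture, and SW620 and SW620-TET2CD cells on day 15 taken from inside or outside the colonies. Cells that passed a strainer after a short accutase treatment were the outside ones. There was 1 library for each line, day and location, so no p-value below measures the spread between cultures of a line, and cultures of the other line or of the neighbouring day gave the error.

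HIF is a transcription factor of 2 chains. The alpha chain is HIF1A, EPAS1 (HIF-2 alpha) or HIF3A, of which HIF1A is known to be made all the time. ARNT (HIF-1 beta) is the steady partner of the alpha chain on DNA. When oxygen is present, the EGLN enzymes (also called PHD) hydroxylate prolines of the alpha chain, VHL binds the hydroxylated chain, and its ubiquitin ligase sends it to the proteasome. HIF1AN (FIH) is a further oxygen-dependent enzyme, which hydroxylates an asparagine and so keeps coactivators away. When oxygen falls these steps slow down, the alpha chain lasts, and target genes for glucose uptake, acid balance and vessel growth are transcribed. EGLN3 and EGLN1 are themselves well-known HIF targets. The control of HIF1A is mostly at the protein, which RNA-seq does not measure.

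From 67056 barcodes, 48282 cells were kept (limits were 200 and 4500 genes, 1000 and 20000 UMIs, and a mitochondrial share of 10%), between 3894 and 8154 in a library. A UMI is a molecular tag that counts 1 captured RNA once. The kept cells of a library held 48186195 to 74185723 UMIs in all, and a level is given as CPM, UMIs of a gene for each 1000000 UMIs of its library, a scale that allows no comparison of levels between genes. The limit for a gene not seen, 3 UMIs, was 0.0404 to 0.0623 CPM. No pair of libraries shared more than 23 kept barcodes, and no shared set was over 0.334% of a library. TET2, the overexpressed gene, was at 2.11 to 3.90 CPM in the 4 SW620 libraries and at 40.2 to 107 CPM in the 4 SW620-TET2CD libraries, as the labels have it, and in bulk at 1.15 to 2.93 TPM without and 38.1 and 124 TPM with the overexpressed domain. The colorectal markers EPCAM, KRT8, KRT18, KRT20, CDX2, VIL1, CDH17 and LGALS4 were seen in every library and summed to 7980 to 12213 CPM. Most of this was KRT8 and KRT18, while KRT20, CDH17 and LGALS4 were at 0.217 to 2.98 CPM and CDX2 at 8.99 to 20.4 CPM.

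The late libraries (days 12 and 15) also differed from the early ones (days 6 and 9) in other ways that go beside every result below. The 9 markers of dividing cells (MKI67, TOP2A, CCNB1, PLK1, AURKA, RRM2, MCM5, PCNA and TYMS) summed to 1373 to 1513 CPM early and 190 to 381 CPM late. The 5 fibroblast markers summed to 16.6 to 28.5 CPM early and 7.94 to 12.5 CPM late, mostly LUM, with COL1A2 or COL3A1 or both at 0 in each library. The 3 endothelial markers summed to 0.379 to 1.39 CPM early and 0.454 to 1.23 CPM late, with CDH5 at 0 in 5 libraries. The 4 immune markers summed to 7.23 to 17.1 CPM early and 23.7 to 57.4 CPM late, nearly all of it LYZ and CD68, while the defining PTPRC and CD3E were at or below 0.0591 CPM. The part of these shifts in the results below was not tested.

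EPAS1, EGLN1 and EGLN3 are shown by the DNA before their starts. EGLN3 and EGLN1 moved most with HIF target genes among the other members tested, and most EPAS1 UMIs of day 12 lay in target-high cells (below). The windows run from 250 to 8 bases before the RefSeq start on GRCh38.p14 and are read 5′ to 3′ on the strand of the gene. Capitals mark ACGTG or GCGTG, the core letters of the HIF binding motif, searched on both strands.
EPAS1, chr2:46297157-46297399, plus strand: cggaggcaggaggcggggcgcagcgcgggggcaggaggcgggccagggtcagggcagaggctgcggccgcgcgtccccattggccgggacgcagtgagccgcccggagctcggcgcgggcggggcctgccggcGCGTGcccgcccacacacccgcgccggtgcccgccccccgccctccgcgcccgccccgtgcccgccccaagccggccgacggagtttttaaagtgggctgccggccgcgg
EGLN1, chr1:231422295-231422537, minus strand: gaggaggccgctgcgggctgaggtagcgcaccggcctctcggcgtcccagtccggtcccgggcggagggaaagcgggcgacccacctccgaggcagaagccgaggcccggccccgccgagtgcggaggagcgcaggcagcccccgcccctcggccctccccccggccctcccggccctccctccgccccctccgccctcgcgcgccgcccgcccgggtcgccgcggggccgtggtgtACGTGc
EGLN3, chr14:33951082-33951324, minus strand: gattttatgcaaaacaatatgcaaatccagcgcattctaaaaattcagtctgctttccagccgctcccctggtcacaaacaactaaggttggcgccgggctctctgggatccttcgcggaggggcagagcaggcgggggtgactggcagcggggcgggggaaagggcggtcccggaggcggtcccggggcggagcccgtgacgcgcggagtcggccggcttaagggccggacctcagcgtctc
EPAS1 had 1 match, 117 bases before the start, and EGLN1 had 1 match, 13 bases before it. No match was found in these 243 bases of EGLN3. RefSeq windows were matched for 8 of the 9 members (not VHL), 12 windows in all, and 5 of the 12 held a match, where 42.4% of the 35116 windows of all genes did. A match is not a measured binding site.

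HIF1A (chr14:61695513-61748259, plus strand, GRCh38, here and below) encodes the oxygen-labile chain of HIF-1. In SW620 its level was 43.6 CPM on day 6, 42.7 on day 9, 30.4 on day 12 and 27.4 on day 15. In SW620-TET2CD it was 48.6, 49.2, 38.9 and 45.5 CPM on the same days. Both lines were thus lower on day 12. On day 15 SW620-TET2CD was back near its early level in CPM, and through that library the late and early groups overlapped on that scale. The fit uses TMM, a scaling factor for each library, which was highest there (1.17, against 0.925 to 1.07 in the others). With these factors the groups did not overlap, and day 15 differed from day 12 by a log2 of 0.07 ± 0.13 (edgeR, both lines, adjusted p = 0.780). Across the 8 libraries the late level was lower by a log2 of -0.51 ± 0.10 (SE; edgeR quasi-likelihood test, adjusted p = 0.00191), and HIF1A passed in each alternative, with adjusted p from 3.10e-05 to 0.0169. The step from day 9 to day 12 was a log2 of -0.53 ± 0.13 (edgeR, adjusted p = 0.00735), and it missed the threshold without SW620 of day 9 (0.126) and without SW620 of day 12 (0.0883).

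EPAS1 (chr2:46293667-46386697, plus strand) encodes the alpha chain of HIF-2, known from vessels, kidney and the control of erythropoietin. It was close to absent early, at 0.0406 and 0.0735 CPM in SW620 and 0.0539 and 0.0827 CPM in SW620-TET2CD on days 6 and 9, which were 3 to 6 UMIs in a library. On day 12 there were 25 UMIs in SW620 (0.493 CPM) and 18 in SW620-TET2CD (0.374 CPM). On day 15 there were 91 (1.72 CPM) and 97 (1.90 CPM). Both lines thus stepped up on day 12 and again on day 15, and all late libraries lay above all early ones. The summed late UMIs (231) over the summed early UMIs (17) gave a ratio of 18.4 per UMI sequenced (exact 95% interval 11.3 to 32.2, counting error only). The step from day 9 to day 12 was a log2 of 2.30 ± 0.44 (edgeR, adjusted p = 0.00160) and that from day 12 to day 15 a log2 of 2.09 ± 0.29 (edgeR, adjusted p = 0.00239). With 3 to 6 UMIs in each early library, EPAS1 passed the filter on low counts only through the late libraries, so that its calls against early libraries add no support beyond these UMIs. Even then few cells showed it, 1.30% of SW620 cells and 1.51% of SW620-TET2CD cells on day 15 having a UMI. Free RNA in the droplets was not measured, since no cell type here is known to lack the gene.

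HIF3A (chr19:46297042-46343433, plus strand) encodes the least studied alpha chain, with forms that hold the others back. It had 1 or 2 UMIs in each SW620 library, below the limit for a gene seen, and 8, 6, 8 and 13 UMIs in SW620-TET2CD on days 6, 9, 12 and 15. It did not pass the filter on low counts in any main comparison and was not tested there. Summed over the 4 days there were 35 UMIs in SW620-TET2CD and 6 in SW620, a ratio of 5.50 per UMI sequenced (exact 95% interval 2.29 to 15.99, counting error only). Over every barcode there were 11, 17, 29 and 36 UMIs in SW620-TET2CD and 4, 2, 2 and 2 in SW620, so that the lines did not overlap there either. The fits over every barcode and without the upper limits on cells called it, but it passed the filter there only through SW620-TET2CD, where it is high, and these calls give no support beyond the UMIs. It was also called without the filter (edgeR, adjusted p = 0.0317), and not in the 7 fits without a library that could test it (0.0747 to 0.156).

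ARNT (chr1:150809713-150876708, minus strand), the shared partner of the alpha chains, was higher late. It went from 6.27 and 7.15 CPM on days 6 and 9 to 8.83 and 9.70 CPM on days 12 and 15 in SW620, and from 6.46 and 7.04 to 9.11 and 11.5 CPM in SW620-TET2CD. The groups did not overlap, and the change was small, a log2 of 0.43 ± 0.13 (edgeR, adjusted p = 0.0149). None of its single steps passed in the main fit, each being between 0.13 and 0.27 on the log2 scale. With upper-quartile factors the step from day 9 to day 12 was 0.40 and passed (edgeR, adjusted p = 0.0366). The late against early call was lost without either of the day 6 libraries (edgeR, adjusted p = 0.0551 without SW620 and 0.0503 without SW620-TET2CD), with every gene above 0 kept (0.0519) and when day 15 was set aside (0.0795).

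**Figure D1:**
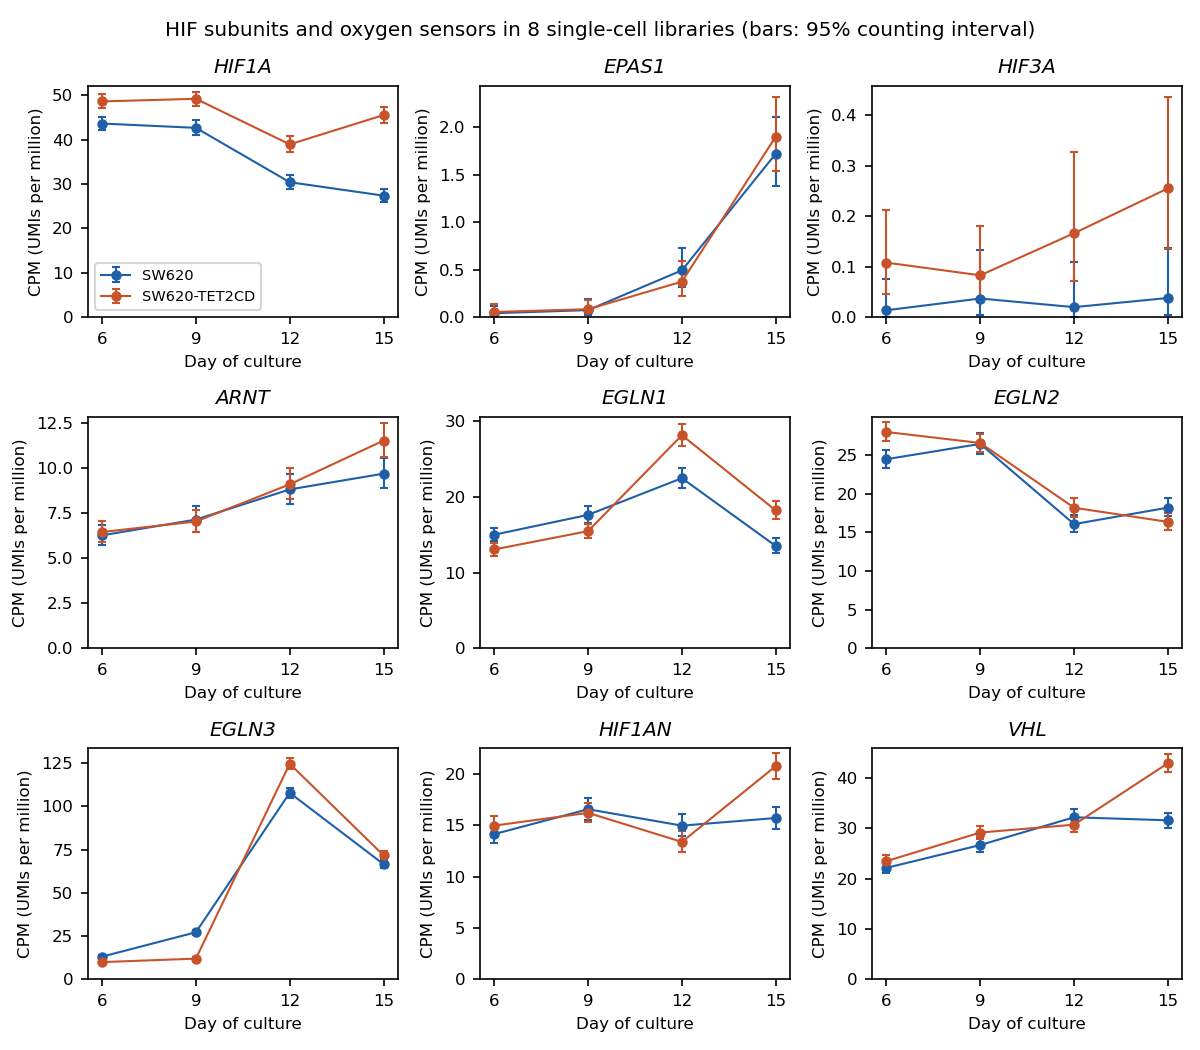
CPM of the 9 genes (y axes, from 0, a scale of its own for each gene) by day of culture (x axes) in SW620 (blue) and SW620-TET2CD (orange), 1 library per point, with exact 95% Poisson intervals that cover counting error only. EGLN3 goes from 9.83 to 27.1 CPM early to 66.5 to 125 CPM late and is highest on day 12, EPAS1 is highest on day 15, and EGLN2 lies lower in all late libraries.

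Of the prolyl hydroxylases, EGLN3 (chr14:33924227-34462774, minus strand), whose product PHD3 is the one best known to be raised by low oxygen, moved most. In SW620 it was at 13.0 CPM on day 6, 27.1 on day 9, 108 on day 12 and 66.5 on day 15. In SW620-TET2CD it was at 9.83, 11.9, 125 and 71.6 CPM. Both lines were highest on day 12, and the lowest late library stood above the highest early one. From day 9 to day 12 it rose 3.98-fold in SW620 and 10.5-fold in SW620-TET2CD, in the fit a log2 of 2.54 ± 0.27 (edgeR, adjusted p = 4.06e-05). Late over early the log2 fold change was also 2.54 ± 0.31 (edgeR, adjusted p = 9.64e-05), and the fits that left out a library gave 2.23 to 2.88. The lower level on day 15 than on day 12, a log2 of -0.75 ± 0.25, missed the threshold (edgeR, adjusted p = 0.0720). DESeq2 (adjusted p = 0.0272), upper-quartile factors in edgeR (0.0477), no filter on low counts (2.44e-05) and 3 of the 8 fits without a library put it past. The size of the fall rested on SW620-TET2CD of day 12, without which the log2 was -0.30 (edgeR, adjusted p = 0.660), and without SW620 of day 12 it was -1.13 (0.0202). Over every barcode it was -0.48 (0.151) and without upper limits on genes and UMIs -0.43 (0.213).

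More cells had an EGLN3 UMI on the late days too, a share that free RNA in the droplets, which was not measured, can raise as well. Each cell was thinned to 2000 UMIs, which takes away the difference in depth, and the share of cells with at least 1 EGLN3 UMI was 2.37%, 5.06%, 17.6% and 12.3% in SW620 on days 6, 9, 12 and 15. In SW620-TET2CD it was 1.66%, 2.49%, 20.6% and 12.8%. The exact 95% interval of the day 12 share ran from 16.4% to 18.9% in SW620 and from 19.3% to 21.9% in SW620-TET2CD. Without thinning the shares were 15.2%, 15.3%, 48.9% and 26.6% in SW620 and 8.17%, 10.9%, 54.0% and 29.2% in SW620-TET2CD, with the same days highest. Thinning left out 18 to 89 cells of a library. For HIF1A the thinned share was 8.01%, 8.43%, 5.58% and 5.35% in SW620, and 8.97%, 9.24%, 7.87% and 8.36% in SW620-TET2CD.

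EGLN1 (chr1:231363751-231422287, minus strand) encodes PHD2, the main oxygen sensor in most cells. It peaked on day 12, with 15.0, 17.6, 22.5 and 13.5 CPM in SW620 and 13.0, 15.5, 28.2 and 18.2 CPM in SW620-TET2CD on days 6, 9, 12 and 15. It was higher on day 12 than on day 9 by a log2 of 0.49 ± 0.16 (edgeR, adjusted p = 0.0248), and lower on day 15 than on day 12 by a log2 of -0.66 ± 0.16 (edgeR, adjusted p = 0.0207). Days 12 and 15 thus went opposite ways, and the mean of late over early, a log2 of 0.31 ± 0.19, did not pass (edgeR, adjusted p = 0.196). With day 15 set aside the mean was 0.61 and passed (edgeR, adjusted p = 0.00938), and without SW620-TET2CD of day 12 it was 0.09 (0.645). Without the SW620-TET2CD library of day 12, the highest of the 8, neither step passed (edgeR, adjusted p = 0.294 and 0.288). The first step was also lost without the SW620-TET2CD library of day 9 (0.306), over every barcode (0.0775) and without upper limits on genes and UMIs (0.0586).

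EGLN2 (chr19:40798996-40808434, plus strand), which encodes PHD1 and is known from estrogen response rather than from low oxygen, fell. Its level was 24.5, 26.5, 16.1 and 18.2 CPM in SW620 and 28.0, 26.6, 18.2 and 16.4 CPM in SW620-TET2CD on days 6, 9, 12 and 15. All 4 late libraries were below all 4 early ones, by a log2 of -0.72 ± 0.12 (edgeR, adjusted p = 0.000693), and the fall lay between days 9 and 12 (-0.75 ± 0.16, edgeR, adjusted p = 0.00319). That step missed the threshold without the SW620 library of day 12 (0.0604). Of the EGLN UMIs, EGLN3 took 24.8%, 38.1%, 73.7% and 67.7% of the EGLN UMIs in SW620 and 19.3%, 22.0%, 72.9% and 67.4% in SW620-TET2CD, a share of UMIs and not of molecules made, since 3' capture can differ between the genes. The share was thus higher in all late single-cell libraries. In bulk SW620 its share of TPM was 12.5% on day 6, and on day 15 lower inside (9.71%) and higher outside the colonies (17.5%).

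HIF1AN (chr10:100529072-100559998, plus strand), the asparagine hydroxylase, showed no late change that could be told from the spread, a log2 of -0.05 ± 0.14 (edgeR, adjusted p = 0.769). Its steps went opposite ways, -0.33 ± 0.13 from day 9 to day 12 (edgeR, adjusted p = 0.0584) and 0.38 ± 0.13 from day 12 to day 15 (0.0756). The first passed without either day 15 library (edgeR, adjusted p = 0.0218 and 0.0215). Its levels ran from 13.4 CPM in SW620-TET2CD on day 12 to 20.8 CPM in the same line on day 15. VHL (chr3:10141778-10153667, plus strand), which recognises the hydroxylated alpha chain, was at 22.2, 26.7, 32.2 and 31.6 CPM in SW620 and at 23.5, 29.2, 30.8 and 43.0 CPM in SW620-TET2CD on days 6, 9, 12 and 15. In CPM no late library was below an early one. The TMM factors of the fit, 1.07 for SW620-TET2CD of day 12 and 1.00 for that line on day 9, make the groups overlap. The log2 fold change of VHL, 0.32 ± 0.13, was just past the threshold (edgeR, adjusted p = 0.0490). It is a weak call, lost in 12 of 16 alternatives with a value on this scale, over which the adjusted p ran from 0.00748 to 0.245 (edgeR or DESeq2).

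EPAS1, tested here only through the libraries where it is high, is left out of the next counts. Of the 7 other members tested, 5 changed between early and late days, 3 up (EGLN3, ARNT and VHL) and 2 down (EGLN2 and HIF1A). Over all genes 57.7% were called in this comparison, 29.4% higher and 28.3% lower, so that to be called does not mark these genes. EGLN3 had the largest log2 fold change of the 7 (2.54). The median log2 fold change was 0.31 over the 7 members and 0.04 over all 16993 genes tested. With upper-quartile factors in place of TMM the median of all genes was 0.21, and the higher genes were 63.4% of those called in place of 51.0%. HIF1A and EGLN2 stayed lower and the other 3 higher with those factors. By single steps, none of the members passed from day 6 to day 9, where 0.887% of all genes were called. From day 9 to day 12 there were 4 of the 7 (HIF1A, EGLN1, EGLN2 and EGLN3) against 42% of all genes, the HIF1A, EGLN1 and EGLN2 calls each being lost without single libraries named above. From day 12 to day 15, where EPAS1 had 18 UMIs or more in each library, there were 2 of the 8 (EPAS1 and EGLN1) against 13% of all genes.

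None of the 8 members tested in the main fit was called between SW620-TET2CD and SW620 with day as a block, where 4.32% of all genes were called. HIF1A was higher in SW620-TET2CD on each of the 4 days, by a log2 of 0.26 ± 0.09 in the fit (edgeR, adjusted p = 0.198). In CPM EGLN3 was lower in SW620-TET2CD on days 6 and 9 and higher on days 12 and 15. The TMM factors of day 15, 1.17 for SW620-TET2CD and 0.951 for SW620, put EGLN3 lower in SW620-TET2CD on that day too. Over the 4 days its log2 in the fit was -0.41 ± 0.18 (edgeR, adjusted p = 0.314). That value was -0.14 without SW620 of day 9, -0.15 without SW620-TET2CD of day 9, and -0.63 without either library of day 12. Without day as a block it was -0.10, and without the filter on low counts EGLN3 was called (edgeR, adjusted p = 0.00447). HIF1A and EGLN3 had an unadjusted p under 0.05 in edgeR, as had 2595 of all 17478 genes tested. EPAS1 differed by a ratio of 0.958 in its summed UMIs (exact 95% interval 0.741 to 1.24, counting error only), and the other members by at most 0.05 on the log2 scale, with SEs of 0.09 to 0.11. Whether the late change differed between the lines was tested by an interaction term. No member passed it, and 0% of all genes did (edgeR, 141 of 17478 at an unadjusted p under 0.05, no call with DESeq2). EGLN3 had the largest difference among the members, a log2 of 0.98 ± 0.53, so a difference of that size cannot be told from the spread here. It was 0.35 without SW620 of day 9, 0.44 without SW620-TET2CD of day 12 and 1.41 without SW620 of day 6, and was not called in any of these.

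**Figure D2:**
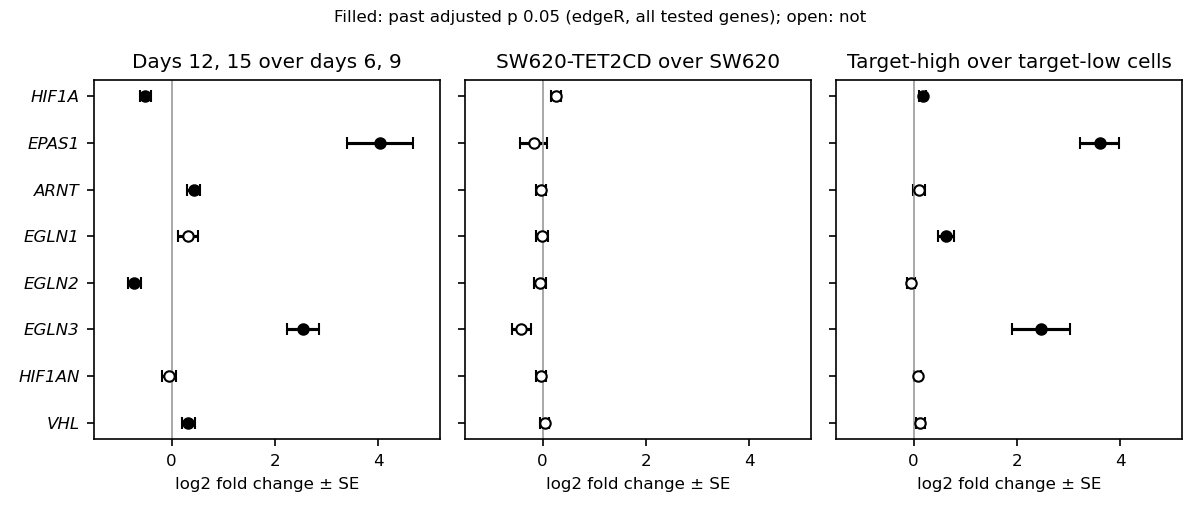
Log2 fold change (x axes) with its SE for the 8 members tested (y axis) late over early days, in SW620-TET2CD over SW620, and in target-high over target-low cells of the same libraries. Filled points lie past the threshold (adjusted p 0.05). EGLN3 lies at 2.54 in the first panel and at 2.47 in the last, EPAS1 lies at 4.03 and 3.60, values that depend on the prior count as its low groups hold few UMIs, and no point of the middle panel is filled. EPAS1 passed the filter on low counts in the first and last panels only through the groups where it is high, so its filled points there add no support.

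Next, the cells of each library were ranked by the share of their UMIs from 15 HIF target genes that are not members (CA9, NDRG1, ADM, VEGFA, BNIP3, ANKRD37, P4HA1, SLC2A1, PFKFB4, DDIT4, NDUFA4L2, LOX, KDM3A, PDK1 and INSIG2), and divided into 4 bins of equal cell number, of which the top and the bottom one were compared. The 15 genes were left out of the sums and of the test. They took 0.0496% to 0.0993% of the UMIs of a top bin early and 0.338% to 0.372% late. SLC2A1 was the largest part of them, so the ranking leans on this gene, and more so early. It made up 168 of 270 CPM in SW620 on day 6 and 661 of 1558 CPM on day 12. In SW620-TET2CD it made up 146 of 229 and 547 of 1565 CPM on these days. Leaving out EPAS1, which was tested only through the bins where it is high, 3 of the 7 members tested (EGLN3, EGLN1 and HIF1A) were higher in the target-high cells and none was lower, where 34.2% of all genes were called and 17.3% were higher.

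EGLN3 followed the targets step by step in the late libraries. On day 12 it was at 22.4, 43.6, 108 and 294 CPM from the bottom to the top bin of SW620, and at 20.9, 49.96, 145 and 339 CPM in SW620-TET2CD. On day 15 it went from 18.5 to 178 CPM in SW620 and from 10.4 to 233 CPM in SW620-TET2CD. On day 9 the range was narrower, 13.4 to 60.1 CPM and 6.66 to 21.9 CPM. On day 6 there was no such order, with 14.3 CPM in the bottom and 12.3 in the top bin of SW620, and 10.2 and 9.11 CPM in SW620-TET2CD. A day 6 cell held few target UMIs. In SW620-TET2CD they were 0.00297% of the UMIs in the bottom and 0.0496% in the top bin, at medians of 8566 and 8088 UMIs per cell. So few UMIs can hardly rank cells, and the missing order on day 6 is not read as a missing link. The top bin thus held 55.1% to 61.5% of the EGLN3 UMIs of a late library, from 18.9% to 21.4% of all its UMIs. Over the 8 libraries the log2 fold change was 2.47 ± 0.57 (edgeR, library as a block, adjusted p = 0.0104).

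**Figure D3:**
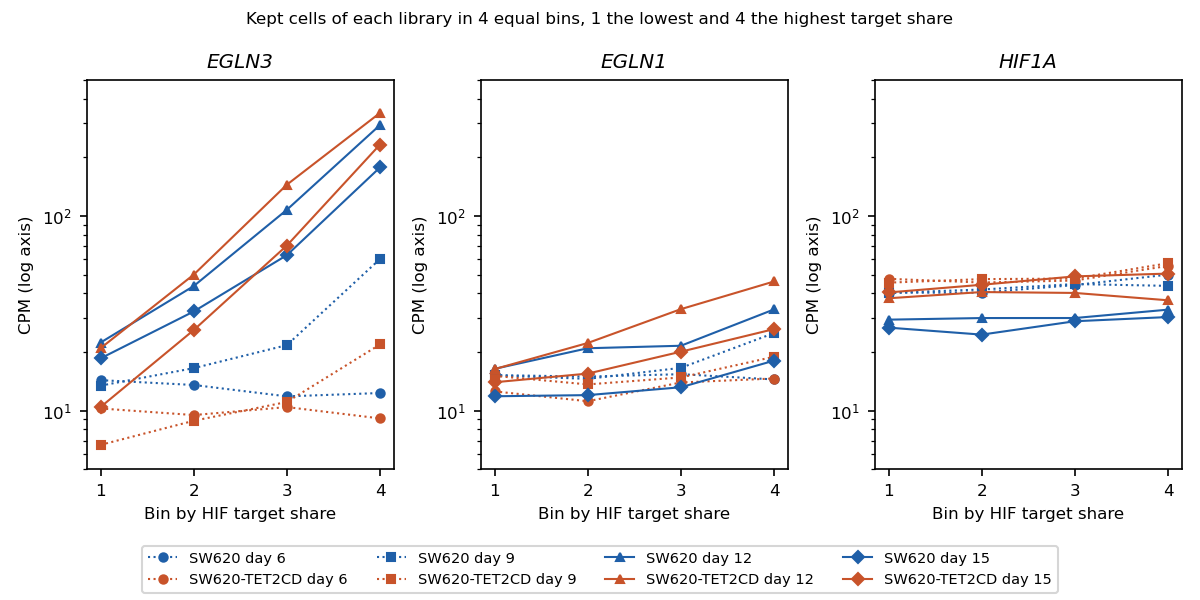
CPM (y axes, log scale, the same range in each panel) of EGLN3, EGLN1 and HIF1A in the bins of cells from the lowest (1) to the highest (4) share of UMIs in the 15 HIF targets, a line for each library, dotted for days 6 and 9 and solid for days 12 and 15. EGLN3 climbs from 22.4 to 294 CPM in SW620 on day 12 and not on day 6, and HIF1A stays between 24.6 and 57.2 CPM throughout.

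The log2 ratio of top to bottom bin for EGLN3 was 3.26 to 4.48 in the 4 late libraries and -0.22 to 2.16 in the 4 early ones, so that the groups did not overlap. A test of this was added after the separation had been seen and only restates it (exact permutation test, two-sided, p = 0.0286, the smallest that 4 against 4 libraries allow), and it did not pass after Benjamini-Hochberg adjustment over 7 members (0.133). Early cells were ranked on fewer target UMIs than late ones, which can lower the early ratios, and the part of this was not tested. EGLN1 had log2 ratios of 0.61 to 1.496 late and -0.07 to 0.72 early (exact permutation test, p = 0.0571, adjusted 0.133). VHL had the same p and adjusted p in this test, with smaller ratios of 0.074 to 0.614 late and -0.245 to 0.136 early. In the fit EGLN1 was higher in the target-high cells by a log2 of 0.62 ± 0.15 (edgeR, adjusted p = 0.0122), for example 46.1 against 16.3 CPM in SW620-TET2CD on day 12.

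EPAS1 UMIs also lay with the target-high cells, but less so on day 15. The top bin held 23 of the 25 EPAS1 UMIs of SW620 and 14 of the 18 of SW620-TET2CD on day 12. On day 15 it held 30 of 91 and 46 of 97, and the bin below it held 41 and 30. The top bins of the 4 early libraries held 2 or 3 UMIs, and the bottom bins of the 8 libraries 0 to 6, with none in 4 of them. EPAS1 thus passed the filter only through the late top bins, where it is high, and its call in the fit gives no support beyond these UMIs. HIF1A was higher by a log2 of 0.17 ± 0.06 (edgeR, adjusted p = 0.0494), and this was lost in 10 of 13 alternatives. In SW620 on day 12, where EGLN3 was 13.1-fold higher in the top than in the bottom bin, HIF1A was at 29.3 CPM in the bottom and 33.0 CPM in the top bin. ARNT, EGLN2, HIF1AN and VHL had log2 fold changes between -0.06 and 0.13 and did not pass.

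Top-bin cells differed in depth and division as well. In the late libraries their median was 5784 to 10996 UMIs, against 7784 to 14612 in the bottom bin, and their markers of dividing cells summed to 107 to 234 CPM against 243 to 520 CPM. With each cell thinned to 2000 UMIs before ranking, EGLN3 and EGLN1 stayed past the threshold, HIF1A did not (edgeR, adjusted p = 0.162), and EPAS1 had too few UMIs to be tested. The part of cell division in these differences was not tested. With the top bin left out of every library, the late rise of EGLN3 was still called (a log2 of 1.93, edgeR, adjusted p = 0.000182), as were the changes of ARNT, EGLN2 and HIF1A. VHL then missed the threshold (0.0914), and EPAS1 was not tested.

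The rest of the pathway was followed by 4 lists. The HIF targets rose late, 13 of the 14 tested being higher and none lower, with a median log2 fold change of 2.03, where 29.4% of all genes were higher. They included NDRG1 (4.45 ± 0.51), the mitochondrial NDUFA4L2 (4.32 ± 0.99), the mTOR inhibitor DDIT4 (4.22 ± 0.64) and the vessel growth factor VEGFA (3.24 ± 0.19, from 6.43 to 13.6 CPM early to 74.4 to 102 CPM late). Of 12 other oxygen-dependent enzymes 9 were higher and none lower, with a median of 0.46, among them the collagen hydroxylases P4HA1 (2.29 ± 0.17) and P4HA2 (1.31 ± 0.13) and the histone demethylases KDM5B (2.27 ± 0.20) and KDM3A (1.64 ± 0.16). P4HA1 and KDM3A are in both lists. Both lists were chosen with earlier results of these data known, so their counts can partly follow from that choice. Of the HIF targets, LOX went from 0.176 CPM on day 6 to 0.0189 CPM on day 15 in SW620, the latter below the limit for a gene seen. In SW620-TET2CD LOX was at 0.135 and 0.157 CPM on these days. BNIP3 overlapped, at 0.368 to 1.05 CPM early and 0.549 to 1.43 CPM late.

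The counts of the other lists stand beside 29.4% of all genes higher and 28.3% lower, and nothing particular to these lists is read from them. Of 14 genes of the VHL ligase and of HIF stability 3 were higher and 6 lower late, with a median of -0.13. WSB1, an adaptor of another ubiquitin ligase, rose by a log2 of 2.02 ± 0.23 (21.0 to 26.2 CPM early and 69.3 to 170 CPM late). The chaperone genes HSP90AA1 (-1.27 ± 0.14) and HSP90AB1 (-0.64 ± 0.11) and NEDD8 (-0.71 ± 0.13), which activates cullin ligases, fell. Of 10 partners, coactivators and competitors 3 were higher and 2 lower, with a median of 0.20. CITED4, which competes for the coactivator that HIF needs, rose by 2.38 ± 0.24, the repressors BHLHE41 and BHLHE40 by 2.27 ± 0.25 and 2.13 ± 0.12, and the acetyltransferase KAT5 fell (-0.83 ± 0.15). All of these named genes passed the edgeR test over all genes.

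As a description, the genes whose pattern over the 8 libraries was most like that of a member were sought among the 8715 other genes with a mean of at least 8 CPM (Pearson r of log2(CPM + 1), 8 libraries that share lines and days). For EGLN3 these were TMCC1 (r = 0.989), CA9 (0.987) and PFKFB4 (0.985), of which CA9 and PFKFB4 are in the list of HIF targets. For EGLN1 they were CDX2, MTA3 and SERPINF2 (0.952 to 0.970), for EGLN2 NDUFS6, KPNA2 and RNF26 (0.994 to 0.995), and for ARNT ODR4, ATXN1 and NEAT1 (0.992 to 0.997). For VHL they were KAT6A, N4BP1 and FRYL (0.992 to 0.994), for HIF1AN EP400, LIMA1 and USP4 (0.969 to 0.979), and for HIF1A PSPC1, CTR9 and HBS1L (0.979 to 0.982).

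In bulk RNA-seq the levels can be compared between genes, as TPM counts transcripts on a common total after division by length. A bulk value cannot tell fewer cells of a kind from less RNA per cell. Expected counts, RSEM's estimate of reads per gene, summed to 16470060 to 25840463 in the 6 libraries. HIF1A was the leading alpha chain of SW620, with 66.1 TPM in the day 6 culture, 49.0 inside and 45.0 outside the colonies on day 15, and 53.9 inside and 86.0 outside in SW620-TET2CD. It made up 96.5% to 99.2% of the TPM of the 3 alpha chains in these 5 libraries. The kit did not keep the strand, so reads of HIF1A and of its antisense RNAs cannot be told apart there. EGLN2 also shares reads with the readthrough gene RAB4B-EGLN2, which was at 0.88 to 2.45 TPM, so its bulk values are uncertain to that extent. By TPM EGLN2 was the highest of the EGLN genes in all 6 libraries. In SW620-TET2CD inside cells it was at 20.93 TPM against 20.75 of EGLN3. That gap is smaller than the 2.45 TPM of the readthrough gene there, so the order of the 2 is uncertain. EGLN2 made up 68.1% of the EGLN TPM in SW620 on day 6 and 59.6% inside and 59.3% outside on day 15. EGLN3 made up 12.5%, 9.71% and 17.5% in the same 3 libraries. In SW620-TET2CD on day 15 EGLN3 was 36.6% inside, close to the 36.9% of EGLN2, and 17.1% outside.

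The lines from the primary tumor and the metastasis stood far apart in EPAS1. SW480 had 126 TPM of EPAS1 and 77.8 TPM of HIF1A, so that EPAS1 was 61.7% of its alpha chains, and SW620 on the same day had 0.54 TPM of EPAS1, or 0.810%. VHL went the other way, with 14.3 TPM in SW480 and 51.1 in SW620. ARNT was at 9.99 TPM in SW480 and 19.6 in SW620, and HIF1AN at 22.9 and 34.8 TPM. EGLN1 was at 21.9 and 9.26 TPM, EGLN2 at 62.0 and 32.5 TPM and EGLN3 at 3.92 and 5.96 TPM. With 1 library each these differences have no replicate check and no test.

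**Figure D4:**
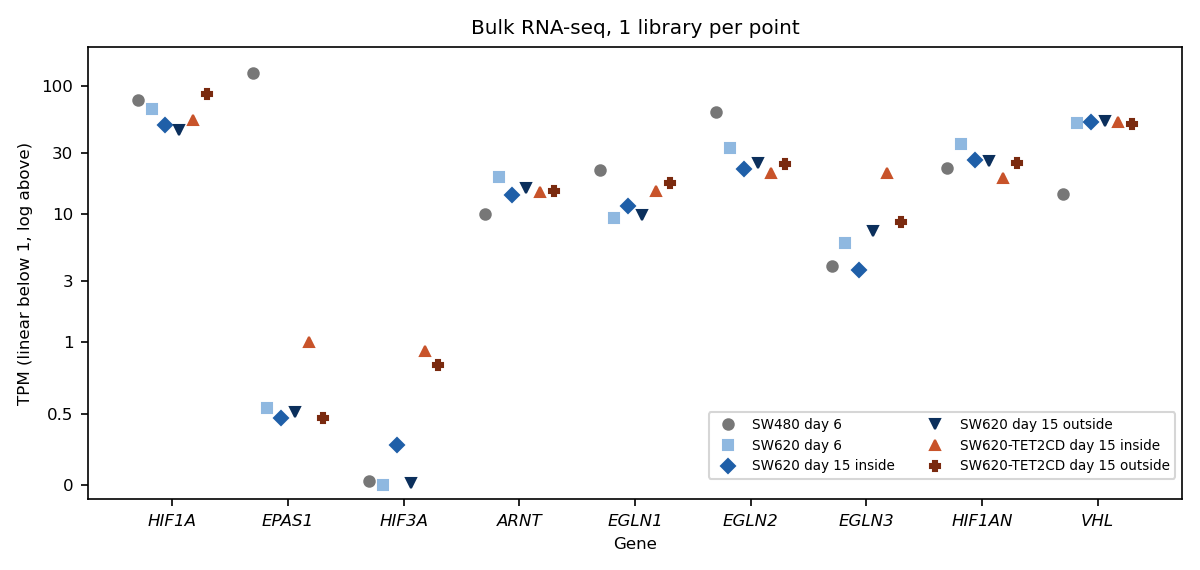
TPM (y axis, linear below 1 and log above) of the 9 genes (x axis) in the 6 bulk libraries, 1 library per point. EPAS1 stands at 126 TPM in SW480 and at no more than 1.00 TPM in the SW620 and SW620-TET2CD libraries, and EGLN3 at 20.8 TPM in SW620-TET2CD cells inside the colonies against 3.66 to 8.67 TPM in the other day 15 libraries.

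Whether the members follow the place of a cell was asked by setting outside against inside cells. None of the 8 tested members passed, and 0% of all genes did (edgeR, 1068 of 17722 at an unadjusted p under 0.05, 21 called with DESeq2), with 1 residual degree of freedom. EGLN3 went opposite ways in the lines, with 3.66 TPM inside and 7.39 outside in SW620 and 20.8 inside and 8.67 outside in SW620-TET2CD. These libraries differed in other ways, whose part was not tested. Inside and outside, the dividing markers summed to 320 and 397 TPM in SW620 and 154 and 300 in SW620-TET2CD. The 15 HIF targets summed to 1128 and 1235 TPM in SW620 and 2160 and 1414 in SW620-TET2CD, where TET2 was at 38.1 and 124 TPM. SLC2A1 was the largest part of these sums, at 624 and 657 TPM in SW620 and 1163 and 743 in SW620-TET2CD. In SW620 single targets went both ways. DDIT4 (190 to 263) and VEGFA (166 to 183) were higher outside, and NDRG1 (7.54 to 5.04) and CA9 (36.0 to 31.3) lower. Over both lines the median log2 of the 15, outside against inside, was -0.40 in the fit, with none called. HIF1A was at 53.9 TPM inside and 86.0 outside in SW620-TET2CD, while in SW620 the values were 49.0 and 45.0. In TMM-scaled CPM the SW620 values were 108 inside and 114 outside, so their direction depended on the scale. VHL was nearly level, at 50.1 to 53.1 TPM in the 4 libraries, and so was ARNT, at 13.9 to 15.8 TPM.

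Between the lines on day 15 no member passed either, where 0.412% of all genes were called. EGLN1 came nearest, with 15.1 inside and 17.4 outside TPM in SW620-TET2CD against 11.6 and 9.78 in SW620, a log2 of 0.71 ± 0.12 (edgeR, adjusted p = 0.0857). It passed without the filter (0.00146), and its log2 was 0.60 to 0.82 in the fits without a library, with an adjusted p of 0.00139 and 3.98e-05 without SW620-TET2CD inside or outside and of 0.765 and 0.729 without SW620 inside or outside. HIF1A was higher in SW620-TET2CD by a log2 of 0.49 ± 0.15 (edgeR, adjusted p = 0.182) and EGLN3 by 1.07 ± 0.55 (edgeR, adjusted p = 0.355). Both were called without the filter (edgeR, adjusted p = 0.0132 and 0.0146). Single libraries decided the values of HIF1A and EGLN3. Without the SW620-TET2CD inside library EGLN3 differed by a log2 of 0.28 (edgeR, adjusted p = 0.451) and HIF1A by 0.77 (8.28e-06), and without the SW620-TET2CD outside library EGLN3 differed by 1.76 (2.87e-07) and HIF1A by 0.19 (0.247). Without the SW620 outside library EGLN3 differed by 1.62 (0.743). The fits without a library had no block and left 1 library in an arm, which was assumed to vary like the 2 libraries, 1 inside and 1 outside, of the other line. Their adjusted p-values thus have no replicate behind that arm. HIF3A, which did not pass the filter here, was at 0.94 and 0.84 TPM in SW620-TET2CD and at 0.28 and 0.01 TPM in SW620, from 6, 56, 2 and 1 expected counts. It was called without the filter (a log2 of 3.86, edgeR, adjusted p = 0.00306) and not without either SW620 library (0.750 and 0.792). The fit without the SW620-TET2CD inside library called it as well, but there it was tested only through the outside library with its 56 counts, the 1 library of that arm, and nothing is read from this call.

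The bulk and single-cell data did not give the same time course. In bulk SW620 EGLN3 was at 5.96 TPM on day 6 and at 3.66 inside and 7.39 outside the colonies on day 15, where the single-cell CPM was 5.12-fold higher on day 15 than on day 6. EPAS1 was at 0.54 TPM on day 6 and at 0.47 and 0.51 TPM on day 15, from 34, 42 and 48 expected counts, where the single-cell libraries had 3 UMIs on day 6 and 91 on day 15. EGLN2 was lower on day 15 in both, with 32.5 TPM on day 6 and 22.5 and 25 TPM on day 15, and so was HIF1A. ARNT, higher late in the single-cell sums, was not higher in bulk, with 19.6 TPM on day 6 and 13.9 and 15.8 TPM on day 15. VHL, also called higher late in the single-cell sums, was at 51.1 TPM on day 6 and at 52.3 TPM inside and 53.1 TPM outside on day 15. Of the 15 HIF targets 10 were higher in bulk inside the colonies on day 15 than on day 6, with a median ratio of 1.39, and 9 outside, with a median ratio of 1.21 (TPM + 0.1). In the single-cell sums of SW620, 13 of 15 were higher on day 15 than on day 6, with a median ratio of 4.35. VEGFA and DDIT4 were higher on day 15 in bulk as well, at 166 and 183 TPM against 48.7 on day 6 and at 190 and 263 TPM against 28.9. The bulk reads cover whole transcripts and the single-cell reads their 3' ends, the day 6 sample was a whole culture and the day 15 samples were parts of cultures that may not be the same one, and which of these differences matters was not tested.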

How the data were processed

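Single-cell RNA-seq (10x 3' v3.1) was done on 8 samples and bulk RNA-seq (TruSeq v2) on 6, and samples were grouped by the line, day and location in their labels. The single-cell matrices hold UMI counts by gene and barcode, which the authors made with Cell Ranger 4.0 against GRCh38. For bulk RNA-seq the authors deposited RSEM tables, of which the expected count and the TPM of a gene were used. The submitters' processing notes also name Bowtie, with versions and annotation not given in the sources used here. Gene positions are those of GENCODE on GRCh38, matched by identifier.

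Cells were kept within the limits given above, and doublets were not called. UMIs were summed per library (or per bin of cells), expected counts were rounded, and edgeR's two-sided quasi-likelihood test (edgeR 4.0.16, R 4.3.3), after filterByExpr and TMM scaling, was run on all genes, with Benjamini-Hochberg adjustment over all genes tested and a threshold of 0.05. The SE is the log2 fold change divided by the square root of its F. The fits were late against early days with line as a block, day steps with line as a block, line with day as a block, their interaction, top against bottom bin with library as a block, and location and line in the 4 bulk libraries of day 15. Tables and exact tests used scipy 1.17.1, pandas 2.3.3 and numpy 2.4.6 in Python 3.11.15, and figures matplotlib 3.10.9. Poisson and Clopper-Pearson intervals cover counting error only. The fits were tested on simulated data with known changes. A log2 change of 1 was recovered in 20% of changed genes for the interaction, 50% for location and 61% for the bulk lines. For the other comparisons simulated this was 75% to 84%. Changes of that size can thus be missed, most of all in the first 3.

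Alternatives were DESeq2 1.42.0, no filter, upper-quartile factors, no block, every barcode, no upper limits, day as a number, 2 bins in place of 4, thinning to 2000 UMIs, and each library left out. Leaving out day 15 and leaving out the top bin were chosen after seeing the data. Named genes are the 9 members, up to 4 genes of each list with the largest change among those called late against early, and the 3 genes nearest to a member in pattern. The members and lists were chosen with earlier results of these data known. No reads were aligned again.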

Additional observations from a re-analysis of the deposited data

Results flagged for a closer look

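EGLN3 moved opposite ways with location in the lines. Outside minus inside, its log2(CPM + 1) differed by 0.71 in SW620 and by -1.35 in SW620-TET2CD. With 1 library each, this difference was not tested, and the values rest on 193 and 290 expected counts inside and outside in SW620 and on 720 and 327 in SW620-TET2CD.

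HIF1A-AS3, an RNA antisense to HIF1A that was not among the 9 genes, was higher late in the single-cell sums. It was at 0.0948 to 0.221 CPM in the early libraries and at 1.02 to 2.03 CPM in the late ones, the highest being SW620-TET2CD on day 12 (2.03 CPM). There were 7 to 14 UMIs in each early library and 54 to 98 in each late one, and the summed late UMIs (332) over the summed early UMIs (42) gave a ratio of 10.7 per UMI sequenced (exact 95% interval 7.76 to 15.1, counting error only). HIF1A was lower on day 12 than on day 9 in both lines, at 0.713-fold in SW620 and 0.791-fold in SW620-TET2CD. From day 12 to day 15 HIF1A was 1.17-fold in SW620-TET2CD, while HIF1A-AS3 went from 2.03 to 1.84 CPM. That fold is of CPM without the TMM factors, which were 1.07 on day 12 and 1.17 on day 15 in this line. In SW620 HIF1A was 0.900-fold and HIF1A-AS3 went from 1.69 to 1.02 CPM, so that both fell. In bulk, where strands cannot be told apart, HIF1A-AS3 was at 11.5 TPM in SW620 on day 6 and on day 15 at 10.2 TPM inside and 12.2 TPM outside.

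EPAS1 was at 126 TPM in SW480, a line in no comparison with a test, and at 0.47 to 1.00 TPM in the 5 other bulk libraries.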

How the results depend on the processing

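Of 560 refits of 44 member changes larger than their SE in the main fit, 505 kept their direction and side of the threshold, 34 lost the threshold, 20 gained it and 1 changed sign. That was HIF1A outside against inside colonies, whose log2 fold changes without a library ran from -0.049 to 0.69 (-0.049 without SW620-TET2CD outside cells). These location fits had no block, so line and location were mixed in them. Within SW620 alone, outside minus inside was 0.08 in log2(CPM + 1) of HIF1A. The refits of EPAS1 late against early, from day 9 to day 12 and by bin are among the 505 and add no support beyond its UMIs (above). The counts of members called moved as follows. They include EPAS1, and between the lines and the bulk lines HIF3A, so nothing is read from those calls. Counts over all genes in these fits are given below, and late against early they were 8216 to 10356 without a library. Between the lines, 0 members became 2 without the filter on low counts (EGLN3 and HIF3A) and 1 over every barcode or without upper limits (HIF3A). From day 6 to day 9, 0 became 1 without the filter. Between target-high and target-low cells, 4 became 2 after thinning. Between the bulk lines, 0 became 4 without the filter (HIF1A, EGLN1, EGLN3 and HIF3A). Leaving out a library gave 4 to 6 members late against early, 3 to 6 from day 9 to day 12 (3 without SW620 of day 12), 1 to 3 from day 12 to day 15 (1 without SW620-TET2CD of day 12) and 0 to 3 between the bulk lines (3 without SW620-TET2CD inside, 2 without SW620-TET2CD outside). These bulk fits had no block and 1 library in an arm, assumed to vary like the other line. The cause was not tested.

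Counts over all genes moved by over 1.5 times in the same fits. Between the lines 755 became 46 without the block and 1489 without the filter, and for the interaction 0 became 15 without the filter. From day 6 to day 9, 155 became 396 with DESeq2, 479 over every barcode and 978 without the filter. For location 0 became 21 with DESeq2 and 472 without the filter. For the bulk lines 73 became 709 with DESeq2, 178 with upper-quartile factors, 2239 without the filter and 8 without the block. Between target-high and target-low cells 5215 became 1529 after thinning. Without a library the counts ran from 440 to 774 between the lines, 1 to 1363, 3395 to 9110 and 269 to 3220 for the day steps in order, 3053 to 5450 for target-high cells, and 0 to 4191 for the bulk lines. In bulk, TMM-scaled CPM in place of TPM moved the day 15 inside over day 6 difference of HIF3A by over 0.5 on the log2 scale, to 0.84, and that of no other member. Other bulk differences can turn with the scale, such as HIF1A by location in SW620 (above). EPAS1 inside the colonies was at 0.47 TPM in SW620 and 1.00 in SW620-TET2CD, but at 1.65 and 1.31 TMM-scaled CPM, from 42 and 28 expected counts. The labels give no replicate numbers that could pair samples. Pairing went by day between the lines and by library between the bins, as blocks of the main fits. Dropping the block, which was done for late against early days, the lines, location and the bulk lines, changed no count of members called in these 4 comparisons. HIF3A and EPAS1 are limited by their UMIs.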
